A study of Mus musculus with 6 samples.

Results

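Chromosome 11 held 138484 of the 1868370 peaks that were called in 6 ATAC-seq libraries of the mouse palate, and every line of the 6 peak lists placed on this chromosome was taken. ATAC-seq marks open chromatin by the sites at which the Tn5 transposase inserts, and a peak is a stretch of DNA with more insertions than its surroundings. The palatal epithelium was peeled from palatal shelves of C57BL/6 embryos at E14.5 after trypsin treatment, and 3 libraries of about 20000 cells each were made from it. The tissue that remained, largely mesenchyme, gave the other 3 libraries. No mutation or treatment is named for either tissue, the peeled layer held basal cells and periderm with no further sorting, and each library pooled cells of several embryos. The lists gave 19017, 24471 and 20984 chromosome 11 peaks in epithelium and 22387, 26879 and 24746 in mesenchyme. Chromosome 11 was chosen for its lower share of peaks in epithelium in these same libraries, so every value that sets epithelium against mesenchyme along it is given as a description.

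Mouse chromosome 11 is rich in genes and in G and C bases. It carries the type I keratin cluster, whose products pair with type II keratins to form the intermediate filaments of epithelia, and the Hoxb cluster, which patterns the body axis. It also carries Col1a1, the type I collagen chain made by mesenchyme, and signalling genes such as Egfr, Nog, Wnt3 and Wnt9b that act in craniofacial development. Open chromatin in the palate at this stage includes promoters that most cells share and distal elements that are often particular to a layer.

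The tissue labels were checked with peaks near marker genes, scaled to the mean list length of the 6 libraries. For 7 epithelial markers the summed peaks lay between 164 and 188 in epithelium and between 123 and 143 in mesenchyme, without overlap. For 7 mesenchymal markers they lay between 178 and 220 in epithelium and between 224 and 266 in mesenchyme, again without overlap. Single markers did not all separate the tissues. Unscaled, Epcam had 32, 28 and 34 peaks in epithelium and 26, 35 and 37 in mesenchyme, and Pdgfra 35, 31 and 37 against 28, 45 and 37. Perp, with 22, 23 and 15 against 11, 8 and 9, and Prrx1, with 5, 15 and 13 against 22, 23 and 27, did separate them. So did Esrp1, with 16, 31 and 16 against 12, 15 and 10. Trp63, with 11, 12 and 9 against 1, 9 and 6, did so only once scaled. The other epithelial and mesenchymal markers overlapped once scaled. Endothelial, leukocyte, skeletal muscle, nerve and erythroid markers overlapped between the tissues, and no marker lacked a peak in all 6 libraries. A shift in cell makeup and a shift in open chromatin within a cell type cannot be told apart in such bulk libraries. Among these markers, Krt14, a keratin of basal epithelium on chromosome 11, had 14, 21 and 16 peaks in epithelium and 12, 23 and 16 in mesenchyme. Col1a1 had 63, 52 and 55 peaks in epithelium and 64, 66 and 75 in mesenchyme. The unscaled numbers of Col1a1 did not overlap, with epithelium lower, but those of both genes overlapped once scaled to list length.

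Regions listed in a single tissue are places where the peak lists of the tissues differ. Peaks that fall short of the calling cutoff in single libraries can also give such regions, and how many arose in this way was not tested. Overlapping peaks of the 6 lists were merged, and a region was called epithelium-only or mesenchyme-only when all 3 libraries of one tissue and none of the other had a peak there. Below stand the 4 regions of each kind whose narrowest peak among the 3 libraries was widest and whose centre touched no untranslated exon, each by the 200 bp at its centre, in RefSeq sequence of GRCm38.p6 (mm10), plus strand, 5′ to 3′. Capitals mark matches, on either strand, to short motifs that no other motif in the search contains: CAGGTG (E-box), TGACTCA (AP-1), TTGGCA (nuclear factor I), TGTGGT (Runx), GGGCGG (GC box), TAATTA (homeodomain), GGAATG (TEAD), ACAAAG (Sox) and AACCGGTT (Grainyhead-like). They are printed because they stand first by this rule among the single-tissue regions of the chromosome. A match is a description of the letters, not a bound site.

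E1 lay 91.8 kb upstream of the start of Egfr, the receptor for epidermal growth factor, between genes, with the printed stretch at chr11:16660339-16660538. In epithelium its peaks measured 1289, 1002 and 1084 bp.
E1: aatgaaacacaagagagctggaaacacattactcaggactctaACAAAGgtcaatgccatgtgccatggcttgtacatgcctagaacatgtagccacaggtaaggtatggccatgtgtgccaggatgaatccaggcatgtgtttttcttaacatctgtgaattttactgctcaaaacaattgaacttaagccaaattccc
E2 lay at chr11:7780782-7780981, between Igfbp3, an insulin-like growth factor binding protein, and Tns3, a focal adhesion protein. Its epithelial peaks were 965, 1096 and 924 bp wide.
E2: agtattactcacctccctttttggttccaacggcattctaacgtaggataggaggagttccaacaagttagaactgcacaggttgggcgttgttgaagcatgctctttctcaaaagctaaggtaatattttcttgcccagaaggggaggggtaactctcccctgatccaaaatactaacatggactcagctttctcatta
E3 lay at chr11:24112086-24112285 in an intron of Bcl11a, a zinc finger repressor, 34.1 kb from its start and under an antisense transcript. The narrowest of its epithelial peaks measured 906 bp and the widest 1071 bp.
E3: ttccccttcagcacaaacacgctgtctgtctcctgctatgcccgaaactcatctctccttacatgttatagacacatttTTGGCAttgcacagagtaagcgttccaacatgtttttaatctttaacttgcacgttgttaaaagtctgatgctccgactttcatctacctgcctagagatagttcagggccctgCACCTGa
E4 lay at chr11:67559001-67559200 in an intron of Gas7, a cytoskeletal protein, 104 kb from its start. Peak widths were 935, 888 and 878 bp.
E4: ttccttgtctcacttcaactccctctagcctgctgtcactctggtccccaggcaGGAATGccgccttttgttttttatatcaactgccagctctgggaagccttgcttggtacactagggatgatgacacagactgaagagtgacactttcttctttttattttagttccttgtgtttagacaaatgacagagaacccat

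M1 lay at chr11:68188752-68188951 in an intron of Stx8, a SNARE protein of vesicle fusion, with the guidance cue gene Ntn1 on the far side. In mesenchyme its peaks measured 1043, 1178 and 1082 bp.
M1: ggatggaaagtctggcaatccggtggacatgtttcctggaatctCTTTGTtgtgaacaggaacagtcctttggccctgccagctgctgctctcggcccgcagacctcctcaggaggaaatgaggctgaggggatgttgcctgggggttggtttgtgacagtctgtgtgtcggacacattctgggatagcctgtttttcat
M2 lay at chr11:35053488-35053687, between genes and 67.6 kb from the start of Slit3, which encodes a secreted guidance ligand. Its mesenchymal peaks were 815, 1144 and 1008 bp wide.
M2: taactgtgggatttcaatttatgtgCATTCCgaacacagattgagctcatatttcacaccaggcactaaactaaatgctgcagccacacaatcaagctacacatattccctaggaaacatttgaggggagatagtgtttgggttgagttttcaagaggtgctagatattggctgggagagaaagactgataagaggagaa
M3 lay at chr11:106794583-106794782 in an intron of the centrosomal gene Cep95, 5.43 kb from its start. The mesenchymal peaks measured 754, 853 and 626 bp.
M3: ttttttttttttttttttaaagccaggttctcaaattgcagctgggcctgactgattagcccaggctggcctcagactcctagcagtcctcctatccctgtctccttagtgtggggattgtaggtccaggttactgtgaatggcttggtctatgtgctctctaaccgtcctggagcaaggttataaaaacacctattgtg
M4 lay at chr11:106590031-106590230 in an intron of Tex2, a lipid transport protein of the endoplasmic reticulum. Peak widths were 726, 625 and 673 bp.
M4: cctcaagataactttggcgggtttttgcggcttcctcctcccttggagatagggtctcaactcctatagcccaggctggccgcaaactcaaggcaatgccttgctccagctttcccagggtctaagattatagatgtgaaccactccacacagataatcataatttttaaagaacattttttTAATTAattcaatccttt

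The 45023 merged regions of chromosome 11 included 23788 with a peak in at least 2 libraries, and these were kept. Of the kept regions 384 were epithelium-only and 571 were mesenchyme-only, whereas 5320 had a peak in all 6 libraries. Epithelium-only regions thus made up 1.61% of the kept regions of chromosome 11, against 2.98% over the genome, and mesenchyme-only regions made up 2.40%, against 2.2% over the genome. Epithelium-only regions outnumbered mesenchyme-only regions genome-wide, 10206 to 7554, and the order was the other way round on chromosome 11. These counts are not scaled to list length. At equal list lengths chromosome 11 had 403 epithelium-only and 459 mesenchyme-only regions among 20871 kept, so the order stayed but the gap was smaller. With 1 epithelium library left out, epithelium-only regions needed fewer libraries to agree, and mesenchyme-only regions had fewer to be absent from. Without epithelium replicate 1, 2 and 3 the chromosome then had 876, 605 and 814 epithelium-only and 837, 1061 and 917 mesenchyme-only regions. Since the definition changes unevenly, these counts cannot show whether the order rested on a single library.

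The 200 bp centres of these regions differed in base composition. Epithelium-only regions averaged 47.7% GC and mesenchyme-only regions 51.4%, beside 52.9% over all kept regions and 56.0% in the regions of all 6 libraries. Start sites of protein-coding genes were rare in either kind, at 0.521% of the epithelium-only kind and 0.701% of the mesenchyme-only kind, whereas 20.5% of the regions found in all 6 libraries held one. The Sox motif stood in 24.7% of epithelium-only centres and 12.8% of mesenchyme-only centres, beside 13.4% of all kept regions. The AP-1 motif stood in 9.90% of epithelium-only and 4.38% of mesenchyme-only centres, beside 4.38% of all kept regions. TEAD letters stood in 19.01% of epithelium-only and 14.2% of mesenchyme-only centres, beside 11.6% of all. These epithelium-only centres thus held each of the 3 motifs more often than the kept regions as a whole, without a test. The regions compared were not matched for GC content or start sites, and how far these set the motif shares was not tested.

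The remaining motifs showed other patterns. Runx letters stood in 15.1% of epithelium-only and 19.4% of mesenchyme-only centres (16.6% of all), and homeodomain letters in 3.65% and 5.08% (2.07% of all). Nuclear factor I letters stood in 18.8% of epithelium-only and 16.6% of mesenchyme-only centres, above the 11.3% of all kept regions in either kind. The E-box stood in 21.1% of epithelium-only and 17.2% of mesenchyme-only centres (20.3% of all), and the GC box in 5.73% and 4.73% (7.68% of all). The Grainyhead-like letters stood in 0 centres of both kinds and in 0.0967% of all kept regions, which says only that these letters were not in the windows.

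The share of each library's peaks on chromosome 11 was 7.04%, 7.01% and 7.07% in epithelium and 7.59%, 7.87% and 7.84% in mesenchyme. Epithelium averaged 7.04% ± 0.0337 and mesenchyme 7.76% ± 0.156 (SD over n = 3 libraries), which differ by -0.725 percentage points. No epithelium library reached the lowest mesenchyme library on this chromosome, which spans 4.48% of the genome. The same held for 3 of the 19 autosomes, chromosome 11 included, and 9 of the 19 had a lower mean share in epithelium. In share of covered base pairs the difference was -1.14 points. Reads per peak are not part of the lists, so these values concern the number and width of peaks, not the openness of a site.

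The lower epithelial share did not run along the whole chromosome. In the first 8 bins of 5 Mb, a cut made after the values were seen, the share was 1.24%, 1.27% and 1.23% in epithelium and 1.19%, 1.22% and 1.24% in mesenchyme, and the tissues overlapped. From bin 9 to bin 25 the share was 5.80%, 5.73% and 5.85% in epithelium and 6.39%, 6.64% and 6.61% in mesenchyme. The distal part therefore carried -0.753 points of difference, while the proximal part carried 0.0286 points in the other direction.

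**Figure D1:**
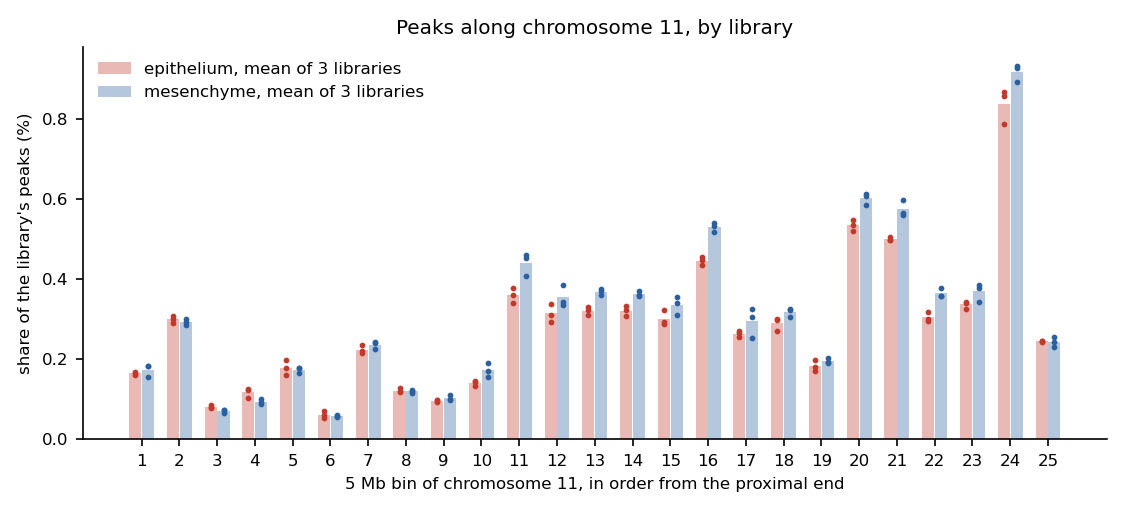
Share of each library's peaks (%, vertical axis, from 0) in the 25 bins of 5 Mb of chromosome 11, numbered from the proximal end. Bars give the mean of 3 libraries and points the single libraries, epithelium left (red) and mesenchyme right (blue). Bin 24 has the highest share in both tissues, 0.839% in epithelium and 0.918% in mesenchyme, and the epithelium bars are the lower ones in bins 9 to 24.

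In a limma fit on log2 scaled peak numbers of all 5 Mb bins of the genome, 10 of the 25 bins of chromosome 11 passed an adjusted p of 0.05 as lower in epithelium, beside 8.49% of the 542 bins tested, and 1 passed as higher, beside 23.6%. On the other autosomes 36 of 476 bins passed as lower and 94 as higher, and on the X chromosome 0 and 33 of 35 did. In 12 bins of chromosome 11 every epithelium library lay below every mesenchyme library (12.2% over the genome), and in 2 bins every one lay above (31% over the genome). The median log2 difference, epithelium minus mesenchyme, was -0.13 over the 25 bins and 0.08 over all bins. Of the 25 bins 18 were below 0. Since the rule picked this chromosome by the same contrast, these counts describe where its difference sits and are no evidence for it.

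Bin 11, 50 to 55 Mb (87 protein-coding genes), stood lowest. Its share was 0.341%, 0.360% and 0.379% in epithelium and 0.408%, 0.454% and 0.461% in mesenchyme, so the tissues did not overlap. The log2 difference was -0.29 (SE 0.06, limma adjusted p = 2.95e-05). This bin holds the interleukin genes Il3, Il4, Il5 and Il13, the Wnt effector Tcf7, and the matrix genes Adamts2, P4ha2 and Col23a1.

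Bin 10 (45 to 50 Mb) had a share of 0.146%, 0.142% and 0.134% in epithelium and 0.1552%, 0.1703% and 0.1896% in mesenchyme. Its log2 difference was -0.29 (SE 0.08, limma adjusted p = 0.00201), and it was the single bin of the chromosome that still passed as lower after the GC trend was removed, at -0.25 (adjusted p = 0.0383). Immunity-related GTPase and olfactory receptor genes fill much of this bin. Bin 22 (105 to 110 Mb) had 0.296%, 0.319% and 0.301% in epithelium and 0.377%, 0.358% and 0.358% in mesenchyme. The log2 difference there was -0.26 (SE 0.06, limma adjusted p = 0.000617).

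Bin 16 (75 to 80 Mb, 101 genes, among them the Ras regulator Nf1 and the Polycomb subunit Suz12) had 0.436%, 0.455% and 0.447% in epithelium and 0.519%, 0.533% and 0.540% in mesenchyme. Its log2 difference was -0.25 (SE 0.06, limma adjusted p = 0.000169), with no overlap. Bin 21 (100 to 105 Mb, 148 genes) had 0.506%, 0.498% and 0.497% in epithelium and 0.566%, 0.599% and 0.560% in mesenchyme, a log2 difference of -0.20 (SE 0.06, limma adjusted p = 0.00201). The remaining bins that passed as lower were bins 12, 13, 14, 20 and 24, at log2 differences of -0.18, -0.20, -0.17, -0.17 and -0.13. In bin 12 the tissues overlapped although it passed.

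At the other end stood bin 4 (15 to 20 Mb, 13 genes), the single bin that passed as higher. It had 0.126%, 0.122% and 0.102% in epithelium and 0.0881%, 0.0919% and 0.100% in mesenchyme, a log2 difference of 0.32 (SE 0.09, limma adjusted p = 0.00195). Bin 3 (10 to 15 Mb, 10 genes) had 0.0767%, 0.0853% and 0.0812% in epithelium and 0.0661%, 0.0732% and 0.0735% in mesenchyme. The tissues did not overlap there, but its log2 difference of 0.19 (SE 0.09) had a limma adjusted p of 0.100. Bin 6 (25 to 30 Mb, 17 genes) had a log2 difference of 0.07 with overlapping libraries, and its sign changed when the GC trend was removed and when epithelium replicate 1 was left out.

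**Figure D2:**
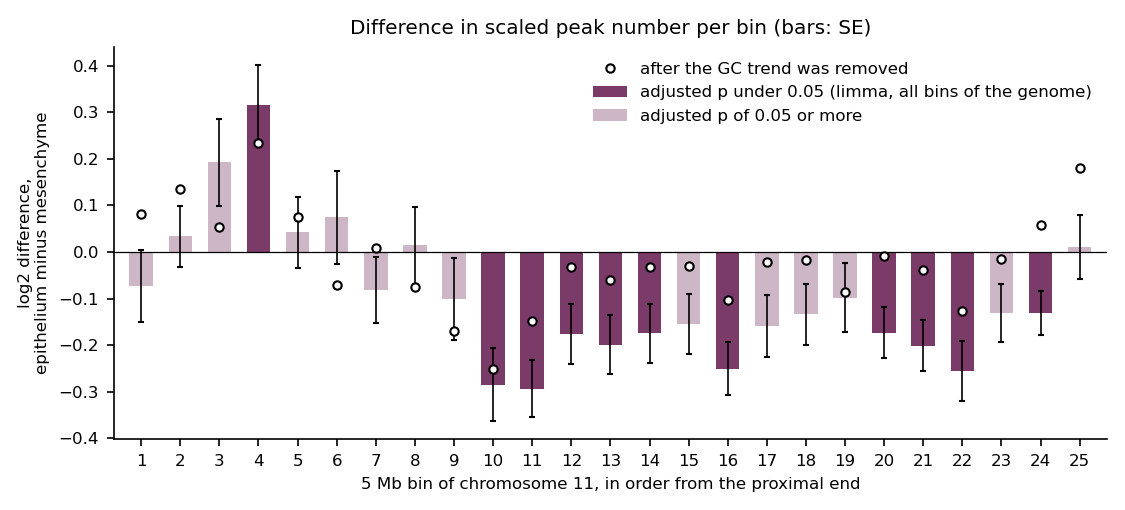
Log2 difference in scaled peaks, epithelium minus mesenchyme (vertical axis), for the 25 bins of 5 Mb of chromosome 11 in order from the proximal end. Bars with SE come from the limma fit over all bins of the genome, dark where the adjusted p is under 0.05, and open circles give the value after a GC trend was removed. Dark bars reach -0.29 in bin 11 and 0.32 in bin 4, while most circles of bins 12 to 24 lie nearer to 0.

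Together 6 of the 25 bins (11, 16, 20, 21, 22 and 24) carried 61.8% of the chromosome's difference in share and held 44.2% of its mesenchyme peaks. Among 123 windows of 1 Mb the largest single contribution was 3.72%, from 101 to 102 Mb. This window holds 43 protein-coding genes, among them Brca1, which acts in DNA repair, Becn1, which acts in autophagy, the ETS factor Etv4, the homeobox gene Meox1 and the Wnt inhibitor Sost. It had 278, 346 and 289 peaks in epithelium and 366, 452 and 391 in mesenchyme. Next came 75 to 76 Mb at 3.17%, with Hic1, Crk and Ywhae, and 53 to 54 Mb at 3.08%, with Hspa4, Il4, Il13, Rad50 and Irf1. The 10 strongest windows together carried 29.4%, so the difference was spread over many neighbourhoods rather than placed in a few.

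The window from 96 to 97 Mb, in which 10 of 26 genes were Hoxb genes, carried 2.64% and had 247, 289 and 238 peaks in epithelium and 315, 361 and 314 in mesenchyme. The keratin window from 100 to 101 Mb, by contrast, carried 0.839%, and its libraries overlapped. In share points epithelium exceeded mesenchyme most in the window from 19 to 20 Mb, which holds Meis1 and Spred2. That window had 155, 184 and 136 peaks in epithelium and 107, 144 and 129 in mesenchyme, a ratio of shares of 1.31. Ratios were higher in 5 windows with fewer peaks, up to 1.64 at 42 to 43 Mb, which had 27, 28 and 25 peaks in epithelium and 18, 16 and 17 in mesenchyme.

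Bins with more GC had lower differences. Across the 25 bins of chromosome 11 the log2 difference had a Pearson r of -0.56 and a Spearman rho of -0.56 with GC content, and across 476 bins of the other autosomes r was -0.62 and rho -0.66. With gene number r was -0.61 and rho -0.71 on chromosome 11. These bins share the same 6 libraries and gene-dense bins are GC-rich, so the coefficients are descriptions. Median differences in bins of low, middle and high GC content were 0.03, -0.14 and -0.17 on chromosome 11 and 0.09, -0.05 and -0.10 in bins of the other autosomes within the same GC limits.

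With each library's trend on bin GC content removed, 1 of the 25 bins stayed past the threshold as lower and 0 as higher by limma, with 2 lower and 2 higher at an unadjusted p under 0.05. Over the genome 4 of 542 bins then passed as lower and 89 as higher. The median over the chromosome became -0.03, beside 0.07 over all bins, and 3 of the 25 bins, beside 21 of all 542, had all epithelium libraries below. Among single peaks split into 10 GC classes of equal size, chromosome 11 had a lower mean share in epithelium in 8 of 10. In the poorest class, up to 45.9% GC, chromosome 11 held 4.30%, 4.54% and 4.69% of the epithelium peaks and 5.38%, 6.24% and 5.78% of the mesenchyme peaks. In the richest class, above 58.8% GC, it held 7.60%, 7.15% and 7.32% of the epithelium peaks and 6.99%, 6.41% and 6.44% of the mesenchyme peaks, so the order was turned round. With equal weight for the 10 classes the difference in share was -0.616 points. Whether base composition of the libraries brought about the difference was not tested.

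How often a peak recurred went with the difference as well. Among peaks found in a single library, chromosome 11 held 4.86%, 5.18% and 4.98% in epithelium and 5.88%, 6.81% and 6.81% in mesenchyme. Among peaks overlapped in 3 libraries, the means were 6.36% in epithelium and 7.63% in mesenchyme. Among peaks overlapped in all 6 libraries it held 8.96%, 8.87% and 8.86% in epithelium and 8.66%, 8.62% and 8.64% in mesenchyme. Peaks of this last class lie, by definition, at sites listed in both tissues. Their share had all epithelium libraries above all mesenchyme libraries. It concerns how many separate peaks were listed at shared sites, not sites particular to a tissue. In each class of 4 libraries or fewer every epithelium library lay below every mesenchyme library.

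**Figure D3:**
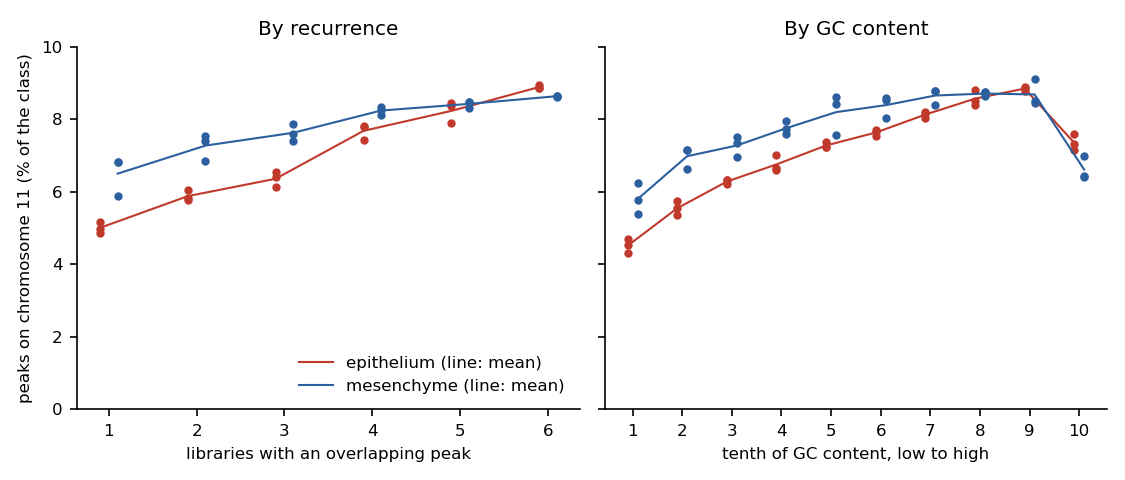
Share of the peaks of a class that lie on chromosome 11 (%, vertical axis, from 0), for classes by the number of libraries with an overlapping peak (left) and by 10 classes of peak GC content (right). Points are single libraries and lines join tissue means, epithelium red and mesenchyme blue. On the left the means run from 5.01% to 8.89% in epithelium and from 6.50% to 8.64% in mesenchyme and cross between 5 and 6 libraries.

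All 5 width classes kept epithelium below mesenchyme in every library. The gap was widest for peaks of 1000 bp or more, of which chromosome 11 held 8.70% ± 0.216 in epithelium, against 10.4% ± 0.503 in mesenchyme (SD over n = 3 libraries). It was -0.38 points for peaks from 200 to under 300 bp. By position, peaks between genes had 6.18% in epithelium and 7.07% in mesenchyme, and intronic peaks 7.29% in epithelium and 7.996% in mesenchyme. Exonic peaks had 8.56% in epithelium and 8.85% in mesenchyme, and peaks at start sites 8.16% in epithelium and 8.46% in mesenchyme. The difference was therefore smaller at exons and start sites than between genes, with no overlap of the libraries in any of the 4 position classes.

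The autosomes nearest to chromosome 11 in GC content and gene density were chromosomes 7, 19 and 17. Their differences in share were 0.010, -0.001 and -0.055 points, and each had overlapping libraries. Chromosome 7 had 5 of 30 bins past the threshold as lower and 7 as higher. Chromosome 19 had 1 of 13 as lower and 1 as higher, and chromosome 17 had 2 of 19 as lower and 2 as higher. The median log2 differences over their bins were 0.06, 0.04 and 0.05 for chromosomes 7, 19 and 17, beside -0.13 for chromosome 11. Among peaks found in 1 library they differed by 0.171, -0.114 and -0.0869 points, against -1.496 points for chromosome 11. On chromosome 17 the sign also changed with recurrence, at -0.251 points (epithelium below in every library) for peaks in 3 libraries and 0.204 points (above in every library) for peaks in 5. On chromosome 19 peaks in all 6 libraries also had epithelium above in every library, by 0.0331 points. The difference between chromosomes was not tested.

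Within each library chromosome 11 peaks were compared with peaks of the rest of the genome, a comparison that does not use the tissues. On chromosome 11 4.83% of peaks overlapped a protein-coding start site, against 4.25% in the rest, and 15.5% against 13.2% lay in exons. Their GC content was 53.0% against 52.4%, and their median width was 353.5 bp against 335.2 bp. Soft-masked repeat sequence made up 19.96% of them on chromosome 11 and 25.0% in the rest. Each of these differences had the same sign in 6 of 6 libraries (exact sign-flip permutation test over the libraries, two-sided, p = 0.03125, the smallest that 6 libraries can give, and 0.03125 after Benjamini-Hochberg adjustment over the 5 measures). The 6 libraries share the same genome, so they are not independent samples of the chromosome's sequence. The p therefore covers the spread between libraries only. Several of these traits were shared with the similar chromosomes, since start sites made up 4.85% of peaks on chromosome 7 and 5.56% on chromosome 19, exons 17.8% on chromosome 7 and 16.4% on chromosome 19, and the median width on chromosome 17 was 354.3 bp. Soft-masked sequence stood between 21.8% and 22.5% on these 3 chromosomes.

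The excess over the rest of the genome also differed in size between tissues. For start sites it was 0.743, 0.716 and 0.780 points in epithelium and 0.527, 0.357 and 0.356 points in mesenchyme. For exons it was 3.13, 2.50 and 2.78 points in epithelium and 2.31, 1.56 and 1.35 points in mesenchyme. The repeat deficit was -5.52, -5.68 and -5.82 points in epithelium and -4.32, -4.38 and -4.48 points in mesenchyme. GC content exceeded the rest by 1.03, 0.858 and 0.786 points in epithelium and 0.438, 0.178 and 0.202 points in mesenchyme. Median width went the other way, with an excess of 12, 17 and 17 bp in epithelium and 19, 24 and 21 bp in mesenchyme. Epithelial chromosome 11 peaks were thus further from the rest of the genome in 4 of the 5 measures and nearer to it in width, which involves the tissues by which the chromosome was chosen and so has no test.

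Each peak was assigned to the nearest protein-coding start on each side within 100 kb, which gave 1625 testable genes of 1637 on chromosome 11 (at least 1 peak per library on average). In the limma fit over 20901 genes, 19 of the 1625 passed an adjusted p of 0.05 as lower in epithelium, beside 0.397% of all genes, and 1 as higher, beside 0.502%. In 315 genes every epithelium library lay below every mesenchyme library (10.1% of all genes), and in 34 every one lay above (7.95%). The median log2 difference was -0.16 on chromosome 11 and -0.02 over all genes. All 19 lay in bins 11 to 24, with 12 of them in bins 21, 22 and 24. Neighbouring genes share peaks, so these are fewer than 19 separate sites. At an unadjusted limma p under 0.05, 259 genes were lower and 25 higher, beside 1594 and 1330 of all 20901 genes. Calls by gene depended on single libraries. Leaving out any 1 library brought the lower calls to between 0 and 8, beside 0 to 25 over the genome. The GC trend correction brought them to 0, also over the genome, with 162 lower and 22 higher on chromosome 11 at an unadjusted p under 0.05. At equal list lengths they also came to 0, with 238 lower and 26 higher unadjusted.

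Egfr was the single gene that passed as higher. It had 27, 37 and 22 peaks in epithelium and 15, 12 and 16 in mesenchyme, a log2 difference of 0.99 (SE 0.21, limma adjusted p = 0.0248). To it fell 4 epithelium-only regions, E1 among them, and 2 mesenchyme-only regions. The GC trend left its log2 difference at 0.85, with an adjusted p of 0.121.

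A run of neighbouring genes in bin 22, which held 5 lower calls, shares many of its peaks. Smurf2, a ubiquitin ligase that restrains TGF-beta and BMP signalling, had 11, 13 and 11 peaks in epithelium and 24, 29 and 24 in mesenchyme (log2 difference -1.01, SE 0.20, limma adjusted p = 0.0199). Its neighbour Cep95, a centrosomal protein, had 3, 10 and 6 in epithelium and 18, 14 and 19 in mesenchyme (log2 difference -1.36, limma adjusted p = 0.0288). Kpna2, an importin that carries cargo into the nucleus, had 11, 17 and 17 in epithelium and 31, 33 and 26 in mesenchyme (log2 difference -0.91, limma adjusted p = 0.0268). To these genes fell 4, 4 and 3 mesenchyme-only regions and 0 epithelium-only regions, M3 among them. The tissues did not overlap at any of the 3 genes. Further along the same bin, the RNA helicase gene Helz had 16, 24 and 21 in epithelium and 31, 36 and 37 in mesenchyme, and 1700012B07Rik, of unknown role, had 14, 16 and 6 in epithelium and 21, 25 and 32 in mesenchyme.

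Bin 21 held 4 lower calls. Itgb3, the beta3 integrin subunit, had 22, 28 and 29 peaks in epithelium and 44, 51 and 46 in mesenchyme (log2 difference -0.76, SE 0.15, limma adjusted p = 0.0220). Next to it Myl4, a myosin light chain of embryonic muscle and atria, had 7, 8 and 14 in epithelium and 21, 21 and 23 in mesenchyme (log2 difference -1.08, limma adjusted p = 0.0368). Both had 0 epithelium-only and 3 mesenchyme-only regions. Etv4, an ETS factor downstream of FGF signalling, had 39, 55 and 47 in epithelium and 69, 84 and 63 in mesenchyme (log2 difference -0.55, limma adjusted p = 0.0368), with 0 tissue-only regions of either kind. Psme3, a proteasome activator subunit, had 1, 3 and 1 in epithelium and 6, 12 and 5 in mesenchyme.

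**Figure D4:**
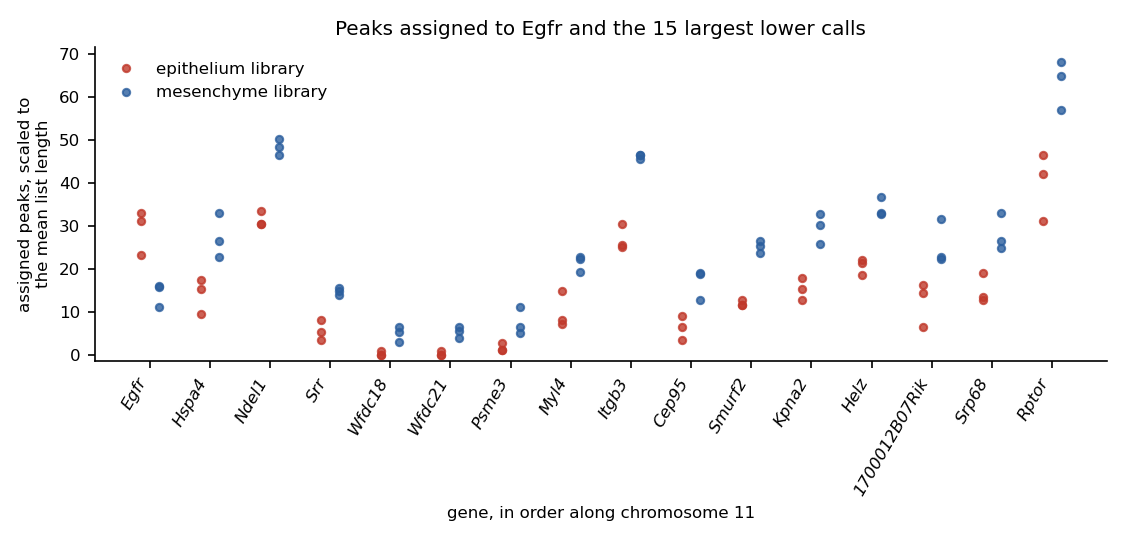
Assigned peaks per library, scaled to the mean list length (vertical axis), for Egfr and the 15 genes with the largest lower calls of the limma fit, in order along the chromosome. Each point is 1 library, epithelium left (red) and mesenchyme right (blue). Egfr is the single gene with epithelium above, and none of the 16 genes shown has overlapping tissues.

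The largest changes belonged to genes with few peaks. Wfdc21 and Wfdc18, small secreted WAP domain proteins, had 0, 1 and 0 peaks each in epithelium, against 6, 6 and 4 for Wfdc21 and 5, 7 and 3 for Wfdc18 in mesenchyme. For Wfdc21 the ratio of peaks per listed peak, epithelium over mesenchyme, was 0.0650 (95% exact Clopper-Pearson interval 0.00155 to 0.418, counting error only), and for Wfdc18 it was 0.0693 (0.00165 to 0.451). The pair lie next to each other and share peaks. Their fitted values depend on the pseudocount and are left out. Srr, the serine racemase that makes D-serine, had 3, 9 and 5 in epithelium and 14, 17 and 14 in mesenchyme (log2 difference -1.31, limma adjusted p = 0.0301), with 4 mesenchyme-only regions and 0 epithelium-only regions.

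Distal lower calls included Rptor, the substrate-binding subunit of mTOR complex 1, with 27, 52 and 40 peaks in epithelium and 54, 71 and 69 in mesenchyme (log2 difference -0.67, SE 0.15, limma adjusted p = 0.0330). Rptor had 6 mesenchyme-only and 0 epithelium-only regions. Srp68, part of the signal recognition particle, had 11, 15 and 18 in epithelium and 25, 36 and 25 in mesenchyme. Hspa4, a relative of the heat shock protein 70 chaperones in bin 11, had 15, 17 and 9 in epithelium and 25, 36 and 23 in mesenchyme (log2 difference -0.94, limma adjusted p = 0.0390). Ndel1, a dynein regulator, had 29, 34 and 29 in epithelium and 44, 55 and 49 in mesenchyme. Further called genes were Epn2, an endocytic adaptor, at 28, 32 and 34 in epithelium and 45, 56 and 49 in mesenchyme, and Wsb1, a ubiquitin ligase adaptor, at 27, 40 and 32 in epithelium and 50, 50 and 56 in mesenchyme. The genes named here do not belong to a single pathway by their known roles.

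Most other named genes of the lowest bins had fewer peaks in every epithelium library after scaling but did not pass. At Olfr1377 in bin 11 and Krt34 in bin 21 the tissues overlapped. Ube2b, a ubiquitin-conjugating enzyme in bin 11, had 5, 5 and 2 peaks in epithelium and 8, 12 and 12 in mesenchyme (limma adjusted p = 0.0735), and Zcchc10 had 2, 4 and 5 in epithelium and 10, 11 and 8 in mesenchyme (limma adjusted p = 0.0741). In bin 10 Btnl9, a butyrophilin-like protein, had 2, 2 and 2 in epithelium and 5, 8 and 7 in mesenchyme. In bin 16 BC030499 had 5, 6 and 2 in epithelium and 11, 13 and 11 in mesenchyme, and the intraflagellar transport gene Ift20 had 1, 5 and 1 in epithelium and 8, 5 and 5 in mesenchyme (limma adjusted p = 0.1502).

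In the bins with the highest epithelial values, Meis1, a homeobox gene, had 24, 27 and 24 peaks in epithelium and 22, 15 and 16 in mesenchyme (log2 difference 0.55, SE 0.20, limma adjusted p = 0.202). After scaling the tissues did not overlap, with epithelium higher, but the gene did not pass. Cobl, an actin nucleator, had 25, 33 and 27 in epithelium and 17, 24 and 22 in mesenchyme (log2 difference 0.48, limma adjusted p = 0.197). Efemp1, the extracellular matrix protein fibulin-3, had 15, 13 and 10 in epithelium and 11, 7 and 9 in mesenchyme, and Rtn4 had 17, 18 and 12 in epithelium and 11, 15 and 11 in mesenchyme.

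Of 25 type I keratin genes, 0 passed in either direction by limma, their median log2 difference was -0.03 and 13 were below 0. Members ran from -1.28 at Krt40, with 2, 3 and 0 peaks in epithelium and 5, 5 and 4 in mesenchyme (limma adjusted p = 0.181), to 0.54 at Krt32, with 7, 16 and 11 in epithelium and 5, 10 and 8 in mesenchyme. Krt33b had 1, 5 and 3 in epithelium and 9, 7 and 5 in mesenchyme, and Krt34 had 0, 6 and 3 in epithelium and 6, 4 and 6 in mesenchyme. Over the whole cluster with 50 kb on each side there were 147, 260 and 200 peaks in epithelium and 170, 249 and 224 in mesenchyme. Scaled to list length the tissues overlapped over the cluster as a whole, while 3 of its genes, Krt26, Krt33b and Krt40, had every epithelium library below.

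Among 10 genes of epithelial adhesion and barrier function, 0 passed and the median log2 difference was -0.15. Evpl, an envoplakin of the cornified envelope, had 25, 34 and 37 peaks in epithelium and 38, 56 and 49 in mesenchyme (log2 difference -0.50, limma adjusted p = 0.124). Itgb4, the hemidesmosome integrin, had 44, 57 and 50 in epithelium and 41, 41 and 57 in mesenchyme (log2 difference 0.19, limma adjusted p = 0.618). Among 8 matrix genes 0 passed, 7 were below 0 and the median was -0.28. Adamts2, a procollagen protease in bin 11, had 27, 57 and 52 in epithelium and 57, 81 and 71 in mesenchyme (log2 difference -0.60, SE 0.16, limma adjusted p = 0.0768), and Col23a1, a transmembrane collagen, had 23, 30 and 21 in epithelium and 36, 44 and 34 in mesenchyme (log2 difference -0.55, limma adjusted p = 0.105).

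All 10 Hoxb genes had 0 calls, with 8 below 0 and a median of -0.14. Hoxb13, at the proximal edge of the cluster, had 45, 43 and 42 peaks in epithelium and 53, 54 and 52 in mesenchyme (log2 difference -0.22, limma adjusted p = 0.504). Over the whole Hoxb cluster with 50 kb on each side there were 91, 96 and 90 peaks in epithelium and 105, 117 and 104 in mesenchyme, but the libraries overlapped once scaled to list length. Among 18 other transcription factor genes 0 passed and the median was -0.07. Ebf1, a helix-loop-helix factor, had 24, 33 and 21 in epithelium and 40, 35 and 42 in mesenchyme (log2 difference -0.53, SE 0.17, limma adjusted p = 0.133).

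Among 15 genes of Wnt and other signals 1 passed, the higher call of Egfr, and the median was -0.10. Wnt9b, a Wnt ligand of facial ectoderm, had 30, 39 and 35 peaks in epithelium and 42, 42 and 44 in mesenchyme (log2 difference -0.24, limma adjusted p = 0.481), and Slit3 had 26, 31 and 29 in epithelium and 36, 42 and 31 in mesenchyme (log2 difference -0.26, limma adjusted p = 0.478). All 7 myosin heavy chain genes were below 0, from -0.92 to -0.17, and 0 passed. Myh10, the nonmuscle form, had 19, 42 and 35 in epithelium and 41, 61 and 43 in mesenchyme (log2 difference -0.57, limma adjusted p = 0.130).

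Chemokine genes had 0 calls among 11, a median of -0.07 and 6 members below 0. Ccl11, an eosinophil attractant, had 5, 6 and 7 peaks in epithelium and 1, 7 and 1 in mesenchyme, and Ccl12 had 5, 5 and 7 in epithelium and 0, 9 and 1 in mesenchyme, so mesenchyme replicate 2 stood apart from the other mesenchyme libraries at both. Of 7 genes at the alpha-globin locus 0 passed and 5 were below 0. Hba-a1 had 4, 3 and 3 in epithelium and 5, 9 and 6 in mesenchyme, while its neighbour Nprl3, which holds the globin enhancers, had 16, 19 and 20 in epithelium and 16, 14 and 16 in mesenchyme. Adjacent globin genes are near-identical copies, so their peaks are uncertain. In 12 control genes, chosen for use in most cells, 0 passed, 10 were below 0 and the median was -0.19, close to the median of -0.16 over the chromosome. The ribosomal gene Rpl27 had 6, 6 and 3 in epithelium and 9, 10 and 9 in mesenchyme.

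Tissue-only regions followed the same proximal and distal division. In bins 2 to 8 and in bin 17 epithelium-only regions were more numerous, and in the other 17 bins mesenchyme-only regions were. Bin 6 had 8.61% epithelium-only and 4.78% mesenchyme-only regions among 209 kept, and bin 4 had 7.02% epithelium-only and 2.51% mesenchyme-only among 399. In bin 24, with 2139 kept regions, 4 were epithelium-only (0.187%) and 62 were mesenchyme-only (2.90%). Mesenchyme-only shares thus varied between 1.14% and 4.78% along the chromosome, while epithelium-only shares ran between 0.187% and 8.61%.

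**Figure D5:**
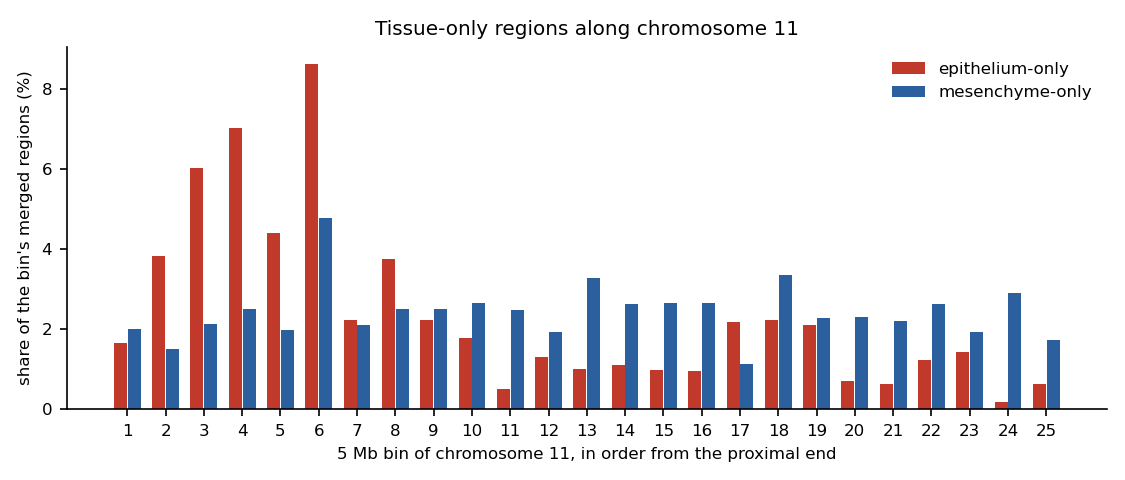
Share of the kept merged regions that were epithelium-only (red, left) or mesenchyme-only (blue, right) in each 5 Mb bin of chromosome 11 (%, vertical axis, from 0), in order from the proximal end. Epithelium-only regions reach 8.61% in bin 6 and 0.187% in bin 24, where mesenchyme-only regions stand at 4.78% and 2.90%.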

How the data were processed

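Peaks of 6 ATAC-seq libraries, 3 of palatal epithelium and 3 of palatal mesenchyme, were used as the authors deposited them, as intervals on mm10 with no read count or height, so no test on reads was run. Per the labels and the study's methods, reads were trimmed with Trimmomatic 0.38 and aligned with Bowtie2, fragments shorter than 100 bp were kept, and peaks were called in each library with MACS2 2.1.1. Their cutoff for calling a peak is not stated in what was read here. The lists held 270003, 349322 and 296695 peaks in epithelium and 295141, 341741 and 315468 in mesenchyme, and list length stands in for depth, which is unknown.

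Peaks were placed in bins by their midpoint, and assigned to protein-coding starts of GENCODE M21 within 100 kb. Numbers were scaled to mean list length and tested as log2(scaled peaks + 1) in limma 3.58.1 (R 4.3.3, trended prior), over all bins with a mean of at least 10 peaks and all genes with at least 1, with Benjamini-Hochberg adjustment. The pseudocount shrinks fold changes where peaks are few. GC correction removed a lowess trend (span 0.3) from each library. Overlap meant at least 1 bp. Other steps used Python 3.11.15, numpy 2.4.6, pandas 2.3.3 and scipy 1.17.1. The fits were also run on simulated counts, drawn independently for each bin and gene with a fixed spread. Real genes share peaks with their neighbours, so that run does not show how reliable the calls are. The p-values measure the spread between these libraries. With 3 against 3 an exact test of a single value cannot go below 0.10, so none is given.

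Named genes were the 4 lowest in each of the 5 lowest bins, the 4 highest in each of the 3 highest bins, genes called higher and the 15 largest called lower; the other called genes and the members of fixed lists named beside them were added after their values were seen. A called gene is not reported here. Members, lists and tests were chosen with earlier results of these data known. Alternatives covered bin size, scaling, list length, GC content, pseudocount, filter, assignment window, pairing and left-out libraries.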

Additional observations from a re-analysis of the deposited data

How the results depend on the processing

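The difference in share of -0.725 points kept its sign under the alternatives named here but the last. It was -1.14 in covered base pairs, -0.554 among peaks shared with another library and between -0.814 and -0.674 with 1 library left out. Among peaks overlapped in all 6 libraries, an alternative chosen after seeing the data, it was 0.252. Such peaks lie at sites listed in both tissues by definition, and the cause was not tested.

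Bins past the threshold as lower and higher numbered 10 and 1 of 25, beside 46 and 128 of 542 over the genome. They were 19 and 2 of 60 with 2 Mb bins (genome 73 and 216 of 1305), where 26 had epithelium below (genome 150), and 8 and 1 of 13 with 10 Mb bins (genome 25 and 68 of 282), where 1 had epithelium above (genome 86). They were 8 and 2 at equal list lengths (genome 51 and 141), 14 and 2 in covered base pairs (genome 55 and 220), and 1 and 0 after GC correction (genome 4 and 89), where 3 had epithelium below (genome 21). Without scaling they were 0 and 0 by limma (7 and 0 at an unadjusted p under 0.05, genome 0 and 5). Leaving out 1 library gave 8 to 10 lower and 1 higher (genome 29 to 42 and 93 to 116). It gave 12 to 16 bins below and 2 to 4 above, the 4 without epithelium replicate 3 (genome 79 to 87 and 189 to 208).

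Genes past the threshold numbered 19 and 1 (genome 83 and 105). They were 14 and 1 with a pseudocount of 0.5 (genome 63 and 95), 6 and 0 with a 50 kb window (genome 22 and 40), and 0 and 0 by limma without scaling (236 and 12 unadjusted), at equal list lengths (238 and 26) and after GC correction (162 and 22), with 0 over the genome in each of these fits. Leaving out 1 library gave 0 to 8 lower, the 8 without mesenchyme replicate 3, and 0 to 1 higher (genome 0 to 25 and 0 to 86). Epithelium-only regions numbered 519 to 876 and mesenchyme-only regions 837 to 1583 with 1 library left out, where fewer libraries had to agree.

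Chromosome 11 differed from the rest with the same sign when 1 library was left out, by 0.540 to 0.6247 points for start sites, 2.0998 to 2.456 for exons, -5.18 to -4.88 for soft-masked sequence, 0.492 to 0.663 for GC content and 17.2 to 19.6 bp for width, each at p = 0.0625 (exact sign-flip permutation test), the smallest that 5 libraries can give.

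Over bins, deviations of same-numbered libraries of the tissues correlated at 0.0867, 0.179 and 0.143. Those of differently numbered libraries correlated between -0.129 and -0.0209, so over bins each library correlated best with its own number. Over genes the same-numbered values were only 0.0187, 0.0205 and 0.00241, and the others lay between -0.0228 and 0.00312. There mesenchyme replicate 3 correlated slightly better with epithelium replicate 2 than with its own number. The mesenchyme was the tissue left after peeling, but the labels do not state which libraries share embryos. For that reason the main fit did not pair the numbers, and whether same-numbered libraries share embryos was not tested. The replicate block pairs them. With the replicate block 12 bins were lower and 1 higher (genome 59 and 140), and 13 genes lower and 1 higher (genome 49 and 66). With the replicate block and GC correction together 0 bins passed by limma (3 lower and 2 higher unadjusted), and 0 genes (157 and 26).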

Other observations

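Tissue-only regions were also counted per gene, and the genes named here were chosen after their values were seen. Of the 1637 protein-coding genes of chromosome 11, 184 had more epithelium-only than mesenchyme-only regions assigned to them, 462 had more mesenchyme-only regions and 924 had neither kind. Tns3, a tensin of focal adhesions, had 5 epithelium-only regions and 1 mesenchyme-only region, and Dusp14, a dual-specificity phosphatase, had 5 epithelium-only and 0 mesenchyme-only. Kremen1, a receptor for the Wnt antagonists of the Dickkopf family, and Rnf43, a ubiquitin ligase that removes Wnt receptors from the cell surface, had 4 epithelium-only and 0 mesenchyme-only regions each. Chmp6, a subunit of the ESCRT-III complex next to Rptor, had 0 epithelium-only and 7 mesenchyme-only regions, some of which the neighbouring genes share.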
